A study of Mus musculus with 6 samples.

Results

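The transcripts described here are 10 genes of neutrophils and of the chemokines that draw them in: S100a8, S100a9, Csf3r, Cxcr2, Cxcl1, Cxcl2, Retnlg, Mmp8, Mmp9 and Ngp. They were found by exact gene symbol among the 21358 entries of an FPKM table (fragments per kilobase of transcript, scaled by the reads of the library), and all 10 were listed and passed a minimum mean of 0.1 FPKM, as did 14172 entries in all. The table held RNA-seq of 6 B16F10 melanomas grown in C57/BL6 mice and taken on day 12. All mice had received total-body irradiation and then adoptive cell transfer (ACT) of activated pmel-1 T cells, whose transgenic receptor recognizes the melanocyte antigen gp100. One group of 3 tumors was from mice given IL-2 on consecutive days of each cycle (ACT + IL-2), and the other 3 were from mice given NKTR-214, an IL-2 molecule carrying releasable polyethylene glycol chains, once per cycle (ACT + NKTR-214). The irradiation was given to deplete host lymphocytes, and the number and origin of neutrophils in these tumors were not measured. Whole tumor RNA was measured, so more cells of a type and more RNA per cell cannot be told apart in any value below. Each tumor came with a replicate number. The p-values rest on the spread between these tumors, with each gene's variance pooled toward that of genes at a like level.

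Neutrophils are short-lived granulocytes made in the bone marrow under granulocyte colony-stimulating factor, whose receptor is encoded by Csf3r. They leave the marrow and enter inflamed tissue along gradients of chemokines, among them CXCL1 and CXCL2, which bind CXCR2. Their cytosol is rich in the calcium-binding pair S100A8 and S100A9, and their granules, filled in sequence during maturation, hold the proteases MMP8 and MMP9 and the granule protein encoded by Ngp. Monocytes also transcribe S100a8 and S100a9, and macrophages, endothelial and tumor cells can transcribe Cxcl1, Cxcl2 and Mmp9.

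By gene model on GRCm38 (GENCODE vM21), S100a8 (chr3:90668978-90670035) and S100a9 (chr3:90692632-90695721) lie near each other on chromosome 3, and Cxcl1 (chr5:90891241-90893115) and Cxcl2 (chr5:90903871-90905938) lie near each other on chromosome 5. Csf3r is at chr4:126024550-126044440, Cxcr2 at chr1:74153989-74161246, Retnlg at chr16:48872621-48874496, Mmp8 at chr9:7558456-7568485, Mmp9 at chr2:164940780-164955850 and Ngp at chr9:110419747-110423012. RefSeq promoters (GRCm38.p6) were matched for 9 of the 10 genes, all but Mmp9. The 250 bases before the transcription start are shown for both chemokines, with the match to the NF-kB consensus in capitals, because Cxcl1 and Cxcl2 hold the same 10-base match, GGGAATTTCC, at positions -71 and -97 from the start.
Cxcl1 (chr5:90890995-90891244, plus strand): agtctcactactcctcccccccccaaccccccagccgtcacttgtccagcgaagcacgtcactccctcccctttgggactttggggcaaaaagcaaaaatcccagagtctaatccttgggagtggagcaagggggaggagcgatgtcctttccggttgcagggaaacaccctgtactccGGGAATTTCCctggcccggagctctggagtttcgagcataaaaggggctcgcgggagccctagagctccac
Cxcl2 (chr5:90903649-90903898, plus strand): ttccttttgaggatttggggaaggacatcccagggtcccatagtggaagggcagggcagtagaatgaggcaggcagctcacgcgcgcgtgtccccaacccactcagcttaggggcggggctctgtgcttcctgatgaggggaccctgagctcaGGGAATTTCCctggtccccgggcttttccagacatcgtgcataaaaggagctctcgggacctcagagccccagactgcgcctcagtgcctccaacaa

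The same window is shown for S100a9 and Mmp8, which had the largest fold changes of the 10 genes, with the match to the core letters of C/EBP sites, TTGCNNAA, in capitals. It begins at -236 in S100a9 and at -19 in Mmp8.
S100a9 (chr3:90695722-90695971, minus strand): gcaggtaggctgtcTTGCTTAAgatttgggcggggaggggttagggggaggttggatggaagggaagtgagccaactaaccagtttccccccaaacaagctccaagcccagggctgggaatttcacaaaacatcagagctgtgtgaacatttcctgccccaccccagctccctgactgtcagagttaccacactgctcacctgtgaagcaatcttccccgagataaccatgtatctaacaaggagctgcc
Mmp8 (chr9:7558179-7558428, plus strand): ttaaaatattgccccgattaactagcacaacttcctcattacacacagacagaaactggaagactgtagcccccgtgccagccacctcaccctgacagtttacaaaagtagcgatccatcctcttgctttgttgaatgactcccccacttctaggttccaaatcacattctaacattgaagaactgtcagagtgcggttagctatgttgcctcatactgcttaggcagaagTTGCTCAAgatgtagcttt
On both strands, the NF-kB consensus was in 5.0% and the C/EBP core in 9.56% of 32851 promoters of this length. Of the other promoters matched, Csf3r held 1 NF-kB match, Retnlg 1 and Ngp 2 C/EBP core matches, and S100a8 and Cxcr2 none of either. A PU.1 site, GAGGAAGT, a STAT site, TTCNNNGAA, and a TATA box, TATAAA, were also searched, and 2.44%, 7.02% and 12.4% of all promoters held them. The PU.1 letters were in S100a8 (-172) and Mmp8 (-221), the TATA letters in S100a8 (-30), and the STAT letters in none of the 9. These matches are descriptions of letters, and binding was not measured.

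Of the 10 genes, 8 were higher in ACT + NKTR-214 tumors and none was lower, where 20.7% of all entries tested were called higher and 8.28% lower (limma on log2(FPKM + 1), Benjamini-Hochberg adjusted p under 0.05 over all 14172). Calls were mostly higher on this scale (71.5%) but not with 75th percentile scaling (46.8%), quantile normalization (37.0%) or a common total (39.7%), where 8, 7 and 8 of the 10 genes were called higher. The median log2 fold change was 1.13 over the 10 genes and 0.05 over all entries tested. In 7 of them every ACT + NKTR-214 tumor lay above every ACT + IL-2 tumor, as it did for 27.1% of all entries tested. Mmp9 and Ngp did not pass the test. Summed over the 10 genes, the ACT + IL-2 tumors (replicates 1, 2 and 3, the order used throughout) had levels of 16, 5.79 and 8.84 FPKM, and those of the ACT + NKTR-214 tumors were 36.1, 76.9 and 57.8 FPKM. With 3 tumors a group, an exact permutation test of a single gene cannot go below p = 0.1, so the calls depend on limma's pooling of variance over genes, and with each gene's own variance none of the 10 was called.

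**Figure D1:**
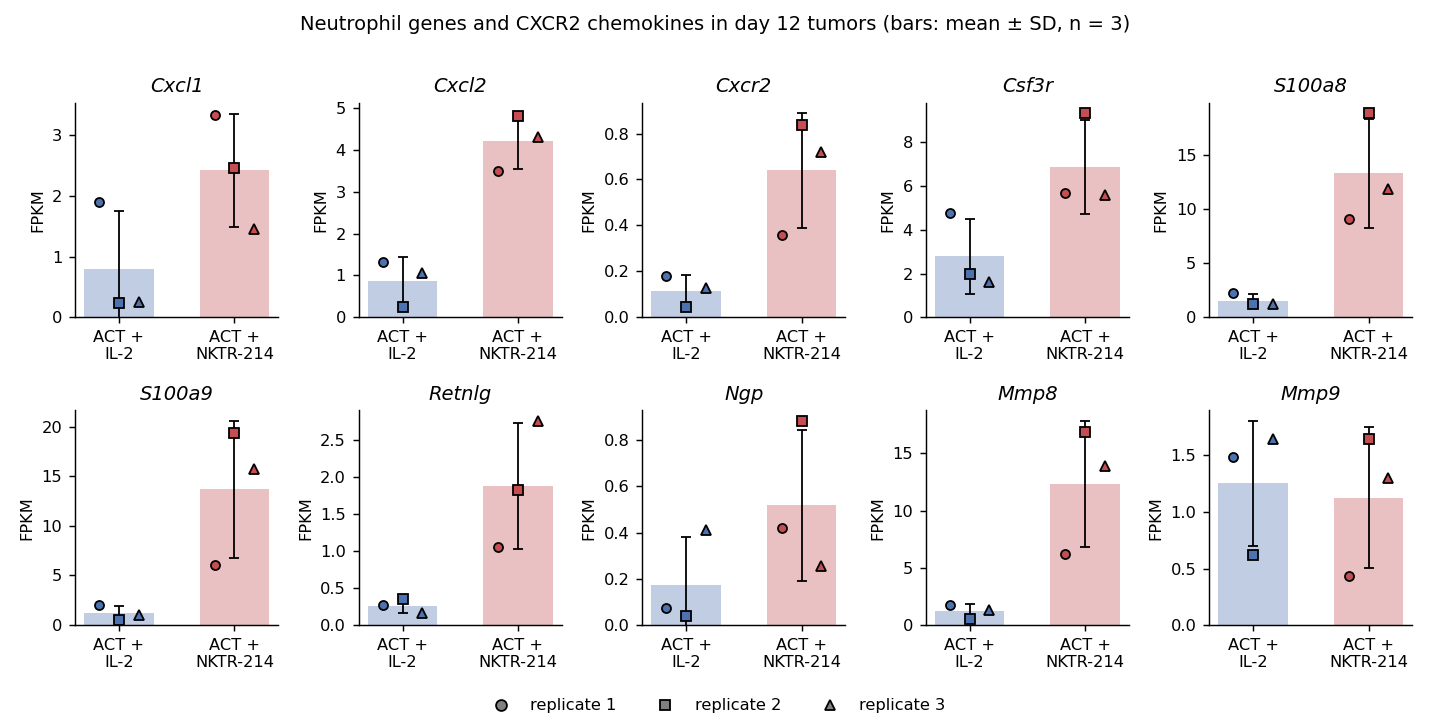
FPKM of each of the 10 genes (linear axes from 0, a scale of its own for each gene) in the 3 ACT + IL-2 (blue) and 3 ACT + NKTR-214 (red) tumors, 1 point per tumor, with bars for the group mean and whiskers for its SD. The groups are apart for 7 genes and overlap for Cxcl1, Mmp9 and Ngp.

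S100a8 and S100a9 encode the subunits of calprotectin, which sequesters metal ions and signals through TLR4. S100a8 was at 2.23, 1.22 and 1.21 FPKM in the ACT + IL-2 tumors and at 9.15, 18.9 and 11.9 FPKM in the ACT + NKTR-214 tumors. The groups did not overlap, and the lowest ACT + NKTR-214 tumor was replicate 1. The means were 1.56 ± 0.588 and 13.3 ± 5.0 FPKM (SD, n = 3), a ratio of 8.54, and the log2 fold change was 2.45 (SE 0.22, limma adjusted p = 1.02e-06).

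S100a9 was at 1.99, 0.499 and 1.0 FPKM in the ACT + IL-2 tumors and at 6.01, 19.4 and 15.7 FPKM in the ACT + NKTR-214 tumors. As for S100a8, the highest tumor was ACT + NKTR-214 replicate 2 and the groups did not overlap. Mean levels of 1.16 ± 0.761 and 13.7 ± 6.9 FPKM (SD, n = 3) gave a ratio of 11.8, with a log2 fold change of 2.68 (SE 0.32, limma adjusted p = 1.17e-05), the largest of the 10 genes. The ratio of S100a9 to S100a8 FPKM was between 0.409 and 0.892 in the ACT + IL-2 tumors and between 0.657 and 1.32 in the ACT + NKTR-214 tumors, so the balance of both subunits overlapped between groups.

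Beyond this pair, 6 of the 8 tested genes of the S100 family were higher and none lower, with a median log2 fold change of 1.25. S100a4, which is linked to cell motility and is abundant in T cells and macrophages, rose by 3.18 on the log2 scale (adjusted p = 4.28e-07), from a mean of 12.1 to 109.8 FPKM. S100a6 (2.37, adjusted p = 8.22e-06) and S100a10, the partner of annexin A2 (1.53, adjusted p = 4.6e-05), followed. S100b, a marker of melanocytes and melanoma, did not pass the test (log2 fold change 0.23, adjusted p = 0.402), nor did S100a1 (-0.01, adjusted p = 0.979). Of 4 receptors for S100A8 and S100A9, Cd36, a scavenger receptor of macrophages, was higher, at 19.0, 8.03 and 7.17 FPKM in ACT + IL-2 and 44.8, 51.4 and 33.2 FPKM in ACT + NKTR-214 tumors (log2 fold change 1.93, adjusted p = 4.63e-05). Tlr4 (log2 fold change 0.33, adjusted p = 0.112), Ager (0.28, adjusted p = 0.149) and Bsg (0.07, adjusted p = 0.858) did not pass the test.

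Csf3r encodes the receptor for granulocyte colony-stimulating factor, which drives neutrophil production and survival. It was at 4.76, 1.99 and 1.64 FPKM in the ACT + IL-2 tumors and at 5.71, 9.34 and 5.59 FPKM in the ACT + NKTR-214 tumors. The groups did not overlap, but ACT + IL-2 replicate 1 was within 1 FPKM of the lowest ACT + NKTR-214 tumor. Means of 2.79 ± 1.71 and 6.88 ± 2.14 FPKM (SD, n = 3) stood in a ratio of 2.46, and the log2 fold change was 1.11 (SE 0.25, limma adjusted p = 0.00351). Without ACT + IL-2 replicate 2 it was 0.98 with an adjusted p of 0.0823, within a range of 2.21e-12 to 0.158 over 15 alternatives. The low end came from leaving out ACT + IL-2 replicate 1, and a lower p from fewer tumors is not stronger evidence.

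Cxcr2, the receptor for CXCL1, CXCL2 and their relatives, was at 0.179, 0.0432 and 0.126 FPKM in ACT + IL-2 and at 0.36, 0.838 and 0.721 FPKM in ACT + NKTR-214 tumors. It was low in every tumor, and the groups did not overlap. The means were 0.116 ± 0.0687 and 0.64 ± 0.249 FPKM (SD, n = 3). Their ratio was 5.5, while the log2 fold change was 0.54 (SE 0.11, limma adjusted p = 0.00166), since adding 1 to each FPKM before the logarithm shrinks the change of low genes. With an added 0.1 FPKM in its place, the log2 fold change of Cxcr2 was 1.76. Cxcr1, its close relative, was at 0.0373 to 0.0426 FPKM and at 0.289 to 0.413 FPKM in the respective groups (log2 fold change 0.36, adjusted p = 0.00399). The ratio of Cxcr2 to Csf3r FPKM spanned 0.0217 to 0.0769 in ACT + IL-2 and 0.0632 to 0.129 in ACT + NKTR-214 tumors, ranges that overlapped.

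The ligand Cxcl1 was at 1.9, 0.23 and 0.252 FPKM in the ACT + IL-2 tumors and at 3.33, 2.46 and 1.46 FPKM in the ACT + NKTR-214 tumors. The groups overlapped, because ACT + IL-2 replicate 1 lay above ACT + NKTR-214 replicate 3. Means of 0.793 ± 0.956 and 2.42 ± 0.932 FPKM (SD, n = 3) gave a ratio of 3.05 and a log2 fold change of 1.02 (SE 0.27, limma adjusted p = 0.00917). The call was lost without ACT + IL-2 replicate 2 (log2 fold change 0.81, adjusted p = 0.156), with quantile normalization (0.79, adjusted p = 0.0753) and with no minimum level (adjusted p = 0.0865). Over 15 alternatives the adjusted p ranged from 7.64e-19 to 0.222. Its low end came from leaving out ACT + IL-2 replicate 1, so it rests on fewer tumors and is not stronger evidence.

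Cxcl2, the neighboring ligand gene, was at 1.31, 0.242 and 1.06 FPKM in the ACT + IL-2 tumors and at 3.48, 4.81 and 4.31 FPKM in the ACT + NKTR-214 tumors. Here the groups were well apart, and the ACT + NKTR-214 tumors were close to each other. The means were 0.872 ± 0.56 and 4.2 ± 0.673 FPKM (SD, n = 3), a ratio of 4.82, with a log2 fold change of 1.51 (SE 0.2, limma adjusted p = 3.26e-05). The ratio of Cxcl2 to Cxcl1 FPKM was 0.693 to 4.21 in ACT + IL-2 and 1.05 to 2.95 in ACT + NKTR-214 tumors, the latter range lying within the former.

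Of the 6 genes listed as other ligands and receptors of this system, 4 were higher, none was lower, 1 did not pass the test and 1 was too low to test. Cxcl3, another CXCR2 ligand, was at 0.576, 0 and 0.61 FPKM in ACT + IL-2 and 0.835, 3.42 and 2.27 FPKM in ACT + NKTR-214 tumors (log2 fold change 1.13, adjusted p = 0.00261). Cxcl5, which stromal and epithelial cells can make, was higher too (1.29, adjusted p = 0.00931), but its 3.75 FPKM in ACT + IL-2 replicate 1 lay above the 3.16 FPKM of ACT + NKTR-214 replicate 1. Ackr1, a decoy receptor on venules and red cells that binds these chemokines, was higher (0.71, adjusted p = 0.00742). Ppbp, the platelet chemokine, did not pass (0.08, adjusted p = 0.517), and Cxcl15 was not tested.

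**Figure D2:**
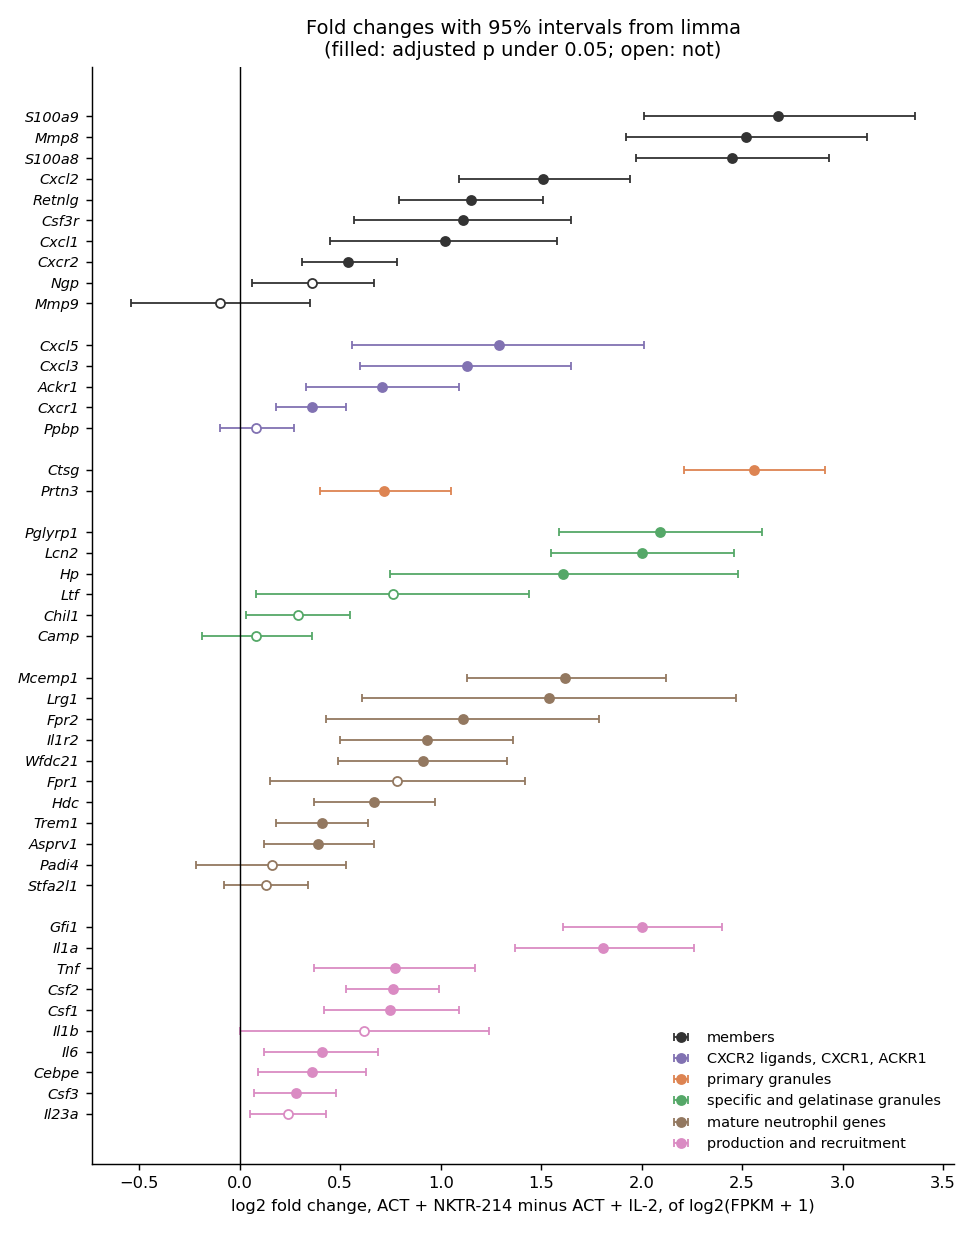
Log2 fold change on the log2(FPKM + 1) scale of the 10 genes (members) and of the tested genes of 5 related lists, ACT + NKTR-214 minus ACT + IL-2, with 95% confidence intervals and filled points for an adjusted p under 0.05. S100a9 has the largest value of the 10 genes at 2.68 and Mmp9 the lowest at -0.10.

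Mmp8 and Mmp9 encode neutrophil collagenase and gelatinase B, secreted proteases that cut matrix collagens. Mmp8 was at 1.79, 0.551 and 1.32 FPKM in the ACT + IL-2 tumors and at 6.17, 16.9 and 13.9 FPKM in the ACT + NKTR-214 tumors. The groups did not overlap, and the order of the tumors was that of S100a9. The means were 1.22 ± 0.627 and 12.3 ± 5.52 FPKM (SD, n = 3), a ratio of 10.1, and the log2 fold change was 2.52 (SE 0.28, limma adjusted p = 6.8e-06).

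Mmp9 was at 1.49, 0.618 and 1.65 FPKM in the ACT + IL-2 tumors and at 0.433, 1.65 and 1.3 FPKM in the ACT + NKTR-214 tumors. The groups overlapped over most of their range, and the lowest tumor of all was an ACT + NKTR-214 tumor. Mean levels were 1.25 ± 0.557 and 1.13 ± 0.627 FPKM (SD, n = 3). The log2 fold change of -0.10 (SE 0.21, limma adjusted p = 0.772) had a 95% confidence interval of -0.54 to 0.35, and it changed sign when ACT + IL-2 replicate 3 (0.04) or ACT + NKTR-214 replicate 1 (0.16) was left out. The ratio of Mmp9 to Mmp8 FPKM was 0.831, 1.12 and 1.25 in the ACT + IL-2 tumors and 0.0702, 0.0979 and 0.0937 in the ACT + NKTR-214 tumors. Both genes were thus at like levels in the former group, and Mmp8 was far above Mmp9 in all tumors of the latter.

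Of 4 genes for tissue inhibitors of metalloproteinases, Timp1 was at 41.2, 22.9 and 29.4 FPKM in ACT + IL-2 and 86.5, 125.0 and 67.2 FPKM in ACT + NKTR-214 tumors (log2 fold change 1.54, adjusted p = 9.63e-05). Timp3 was also higher (0.63, adjusted p = 0.0133), Timp2 did not pass (0.19, adjusted p = 0.414) and Timp4 was too low to test.

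Retnlg encodes resistin-like gamma, a small secreted protein made by mouse neutrophils. It was at 0.275, 0.358 and 0.157 FPKM in the ACT + IL-2 tumors and at 1.06, 1.82 and 2.76 FPKM in the ACT + NKTR-214 tumors. The groups did not overlap, and ACT + NKTR-214 replicate 3 was the highest, where replicate 2 led for 8 of the 10 genes. Means of 0.263 ± 0.101 and 1.88 ± 0.851 FPKM (SD, n = 3) gave a ratio of 7.14 and a log2 fold change of 1.15 (SE 0.17, limma adjusted p = 8.84e-05).

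Ngp, whose granule protein is made at the myelocyte stage in the marrow, was at 0.0722, 0.0376 and 0.412 FPKM in ACT + IL-2 and at 0.418, 0.883 and 0.254 FPKM in ACT + NKTR-214 tumors. The groups overlapped, since ACT + IL-2 replicate 3 lay above ACT + NKTR-214 replicate 3. The means were 0.174 ± 0.207 and 0.518 ± 0.326 FPKM (SD, n = 3), and the log2 fold change of 0.36 (SE 0.14, limma adjusted p = 0.0672) missed the threshold. It passed without ACT + IL-2 replicate 1 (adjusted p = 0.031) or 3 (0.00552), and without ACT + NKTR-214 replicate 1 (0.0277) or 3 (5.79e-05). It also passed with 0.1 FPKM added in place of 1 (0.0456) and with a replicate block (0.026). The range was 5.79e-05 to 0.38 over 14 alternatives, and its low end rests on fewer tumors, which is not stronger evidence.

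Low levels rested on few reads. Of 704 genes with a single transcript, 658 (93.5%) had FPKM values in whole multiples of a step within 0.05, as had all 10 genes, which gave an implied 20.9 to 24.7 M reads per library and a read number for each of the 10 up to a common whole-number factor. The length that this read number implies was within 1.3-fold of the GENCODE length for 9 of the 10 genes. For Cxcl2 the GENCODE length was 1.71 times the implied one, so its reads are less certain and are not given. S100a8 then rested on 21, 11 and 10 reads in the ACT + IL-2 tumors and on 89, 181 and 111 reads in the ACT + NKTR-214 tumors, and S100a9 on 25, 6 and 11 reads and on 78, 248 and 196 reads. Mmp8 had more, with 105, 31 and 68 reads in the ACT + IL-2 tumors and 374, 1010 and 808 reads in the ACT + NKTR-214 tumors. Ngp rested on 2, 1 and 10 reads in ACT + IL-2 and 12, 25 and 7 reads in ACT + NKTR-214 tumors. Cxcr2 rested on 13, 3 and 8 reads and on 27, 62 and 52 reads, and Retnlg on 4, 5 and 2 reads and on 16, 27 and 40 reads. The related receptor gene Cxcr1 had an implied 1 read in each ACT + IL-2 tumor and 8, 8 and 11 reads in the ACT + NKTR-214 tumors. The length check was not made for Cxcr1, so its reads are less certain. Cxcl1 had 43, 5 and 5 reads in the ACT + IL-2 tumors, so replicate 1 alone held most of that group's reads. Mmp9 had 113, 45 and 110 reads in ACT + IL-2 and 34, 128 and 98 reads in ACT + NKTR-214 tumors. Counting intervals cover counting error only.

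**Figure D3:**
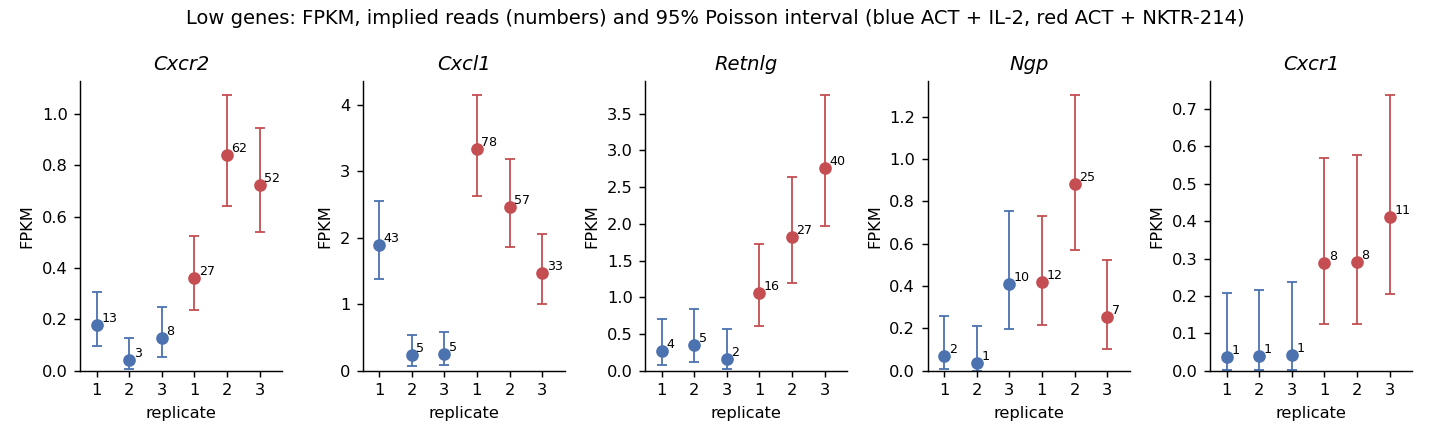
FPKM of Cxcr2, Cxcl1, Retnlg, Ngp and Cxcr1 in each tumor (blue ACT + IL-2, red ACT + NKTR-214), with the implied reads beside each point and 95% Poisson intervals that cover counting error only. Ngp rests on 1 to 25 reads, and the intervals of its groups overlap.

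The granule proteins of neutrophils are made in order, the primary granules first. Of 4 primary granule genes, both that could be tested were higher, where 20.7% of all entries tested were called higher. Ctsg passed the minimum only through the ACT + NKTR-214 group, as its ACT + IL-2 mean was 0.0618 FPKM, so its being tested already leaned on that group. Ctsg, cathepsin G, was at 0.0419, 0 and 0.143 FPKM in ACT + IL-2 and at 4.58, 7.34 and 4.25 FPKM in ACT + NKTR-214 tumors, the largest log2 fold change of the related neutrophil lists (2.56, adjusted p = 4.77e-08). Prtn3, proteinase 3, was at 0.474, 0.0449 and 0 FPKM and at 0.583, 1.35 and 0.866 FPKM (0.72, adjusted p = 0.00208). Mpo, myeloperoxidase, and Elane, neutrophil elastase, were too low to test, with highest values of 0.241 and 0.178 FPKM.

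Of 8 genes for specific and gelatinase granules, 6 were tested, 3 were higher and none was lower. Lcn2, the siderophore-binding lipocalin, was at 3.87, 2.45 and 3.01 FPKM in ACT + IL-2 and 19.0, 18.6 and 10 FPKM in ACT + NKTR-214 tumors (log2 fold change 2.0, adjusted p = 4.5e-06). Pglyrp1, a peptidoglycan-binding protein, and Hp, haptoglobin, were the other 2, with log2 fold changes of 2.09 (adjusted p = 8.45e-06) and 1.61 (adjusted p = 0.00709), and the groups overlapped for Hp. Ltf, lactoferrin, was at 0.823, 0.508 and 0.261 FPKM and at 3.05, 2.57 and 0.168 FPKM (0.76, adjusted p = 0.0877). Its lowest value of all 6 tumors was thus in ACT + NKTR-214 replicate 3, while the other tumors of that group were above all ACT + IL-2 tumors. Chil1 (0.29, adjusted p = 0.0929) and Camp, the cathelicidin gene (0.08, adjusted p = 0.668), did not pass, and Cd177 and Olfm4 were too low to test.

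Of 16 genes of mature neutrophils, 11 were tested, of which 8 were higher and none was lower, with a median log2 fold change of 0.78. Mcemp1 (1.62, adjusted p = 7.5e-05), Lrg1 (1.54, adjusted p = 0.0141) and Fpr2, a formyl peptide receptor (1.11, adjusted p = 0.0161), had the largest values on the log2(FPKM + 1) scale, and the groups overlapped for Lrg1 and Fpr2. By ratio of means the order differed. Of the genes called, Asprv1 had the largest ratio (13.5, from an ACT + IL-2 mean of 0.0274 FPKM) and Fpr2 the smallest (2.35). Padi4, which citrullinates histones in neutrophil extracellular traps, was at 1.69, 0.709 and 0.56 FPKM and at 0.811, 1.24 and 1.45 FPKM (0.16, adjusted p = 0.558), and Stfa2l1 did not pass either (0.13, adjusted p = 0.36). Ly6g, the surface antigen by which mouse neutrophils are gated, was listed at 0 in 5 of 6 tumors and at 0.133 FPKM in ACT + NKTR-214 replicate 2. The stefin genes Stfa1, Stfa2, Stfa3 and BC100530 were listed at 0 in all 6 tumors. Of the 50-base windows of their transcripts, 22.5% for Stfa1, 15.9% for Stfa2 and 36.2% for BC100530 occur in another gene too, against 0.448% for Ly6g and none for Stfa3, so shared reads may be missing from some of these counts. Of 11 neutrophil markers, 6 were higher (S100a8, S100a9, Csf3r, Cxcr2, Retnlg and Mmp8), beside 20.7% of all entries tested that were called higher. Another 4 did not pass the test (Mmp9, Ngp, Ltf and Camp), and Ly6g was too low to test. All 6 that were higher belong to the genes named at the start, so this count is not separate evidence. The markers outside those genes were Ltf, Camp and Ly6g, and none of them was called higher.

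Within the ACT + NKTR-214 group the genes did not keep 1 order of tumors. ACT + NKTR-214 replicate 1 was the lowest of its group for 7 of the 10 genes, S100a9, Mmp8 and Cxcr2 among them, whereas replicate 3 was the lowest for Cxcl1, Ngp and Csf3r. The granule and surface genes Lcn2, Hp, Pglyrp1, Ltf, Fpr2 and Lrg1 were also lowest in replicate 3. This was not particular to such genes. Replicate 3 also had the lowest summed markers of T cells (124 FPKM) and of monocytes and macrophages (1120.2 FPKM) in its group. The sums for eosinophils (5.19 FPKM) and fibroblasts (578 FPKM) were lowest in replicate 1. In the ACT + IL-2 group, replicate 1 was the highest for 7 and replicate 2 the lowest for 7 of the 10 genes. Replicate 2 also had the lowest sum of FPKM over all entries, 176419.8, against 217581.4 to 246513.7 in the other tumors. Across all 6 tumors S100a9 followed Mmp8 (Pearson r of log2(FPKM + 1) 0.998) and Cxcr2 (0.992) closely, while no r of Mmp9 with another of the 10 genes was above 0.32. These correlations are descriptions over 6 tumors in 2 groups, and the group difference enters each of them.

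**Figure D4:**
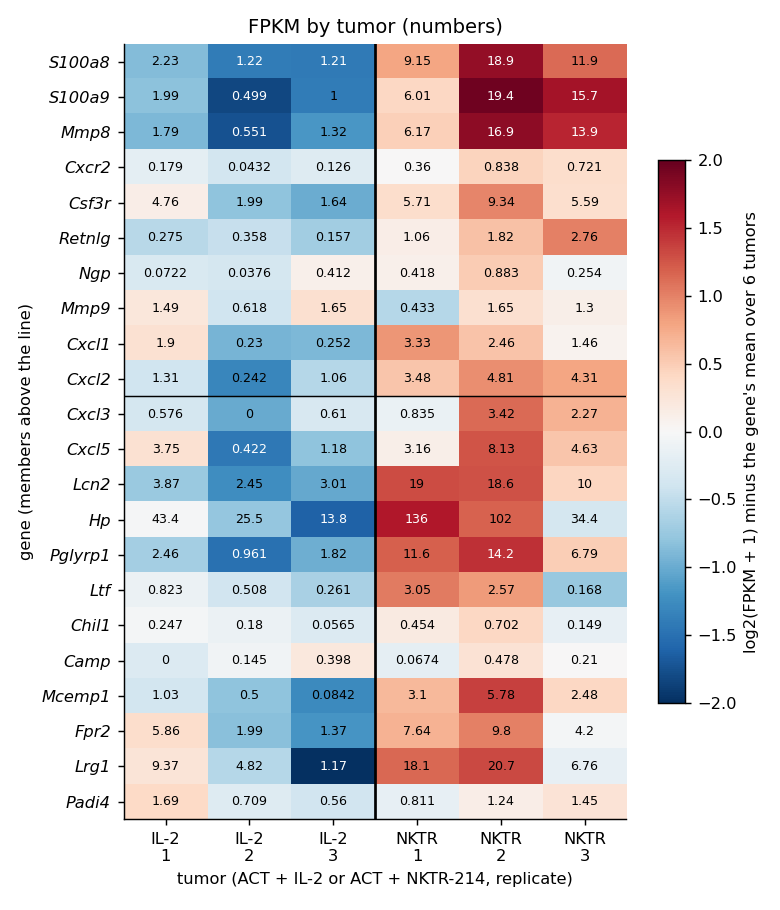
FPKM of the 10 genes (above the line) and 12 related genes (below) in each tumor, printed in the cells, with color for log2(FPKM + 1) minus the gene's mean over 6 tumors. S100a9 and Mmp8 are lowest of the ACT + NKTR-214 tumors in replicate 1, and Lcn2, Hp and Ltf in replicate 3.

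Genes for signals of neutrophil production and recruitment were also measured, 12 in all, of which 10 were tested, 8 were higher and none was lower. Gfi1, a transcription factor needed for granulocyte development and also used by activated lymphocytes, was at 0.351, 0.309 and 0.139 FPKM in ACT + IL-2 and 4.4, 5.72 and 2.56 FPKM in ACT + NKTR-214 tumors (log2 fold change 2.0, adjusted p = 1.2e-06). Il1a, an alarmin cytokine, was at 0.785, 0.486 and 0.629 FPKM and at 5.89, 6.34 and 2.71 FPKM (1.81, adjusted p = 9.41e-06), and Tnf was higher by 0.77 (adjusted p = 0.00605). Csf3, which encodes granulocyte colony-stimulating factor itself, was low, at 0.215, 0.064 and 0 FPKM and at 0.238, 0.421 and 0.309 FPKM (0.28, adjusted p = 0.0394). Il1b was at 4.5, 1.1 and 3.08 FPKM and at 5.61, 5.95 and 2.74 FPKM, groups that overlapped (0.62, adjusted p = 0.126). Il23a missed the threshold (0.24, adjusted p = 0.0547), Il17a was listed at 0 in all 6 tumors, and Il17f was too low to test.

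Markers of other cell types moved in the same comparison. The 10 monocyte and macrophage markers were all higher, with a median log2 fold change of 1.67 and summed levels of 273 to 799 FPKM in ACT + IL-2 and 1120.2 to 1968.5 FPKM in ACT + NKTR-214 tumors. All 7 T cell markers were higher (median 3.38, sums of 11.5 to 25.3 against 124 to 269 FPKM), as were 3 of 4 tested eosinophil markers (0.339 to 0.761 against 5.19 to 9.1 FPKM) and 5 of 6 fibroblast markers (216 to 645 against 578 to 1160.0 FPKM). Among the eosinophil markers, Siglecf, Prg2 and Ccr3 passed the minimum only through the ACT + NKTR-214 group. Their ACT + IL-2 means were 0.065, 0.0166 and 0.0731 FPKM, and Epx, Il5ra and Ear1 were too low to test. Of the 7 melanoma markers 5 were lower and none was higher (median -0.82, sums of 5413.3 to 6932.9 against 2663.6 to 3763.1 FPKM), which is the labelled tumor type and was abundant in every tumor. The part of these cell types in the levels of the 10 genes was not tested. For the other lists the count of tested markers called higher is given beside the summed levels in ACT + IL-2 and ACT + NKTR-214 tumors, to be read against the 20.7% of all entries: mast cells and basophils (1 of 6, 0.781 to 5.37 against 1.75 to 10.7 FPKM), megakaryocytes and platelets (1 of 5, 6.72 to 23.5 against 48.0 to 89.1 FPKM, mostly Pf4, with means of 12.6 and 63.1 FPKM), endothelial cells (1 of 6, 25.5 to 57.9 against 40.2 to 80.6 FPKM), erythroid cells (0 of 5, 44.1 to 143 against 86.3 to 149.7 FPKM), keratinocytes (0 of 2, 0.153 to 0.734 against 0.201 to 1.43 FPKM, Krt1 at 0) and B cells (0 of 2, 0.89 to 2.01 against 0.96 to 1.54 FPKM).

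**Figure D5:**
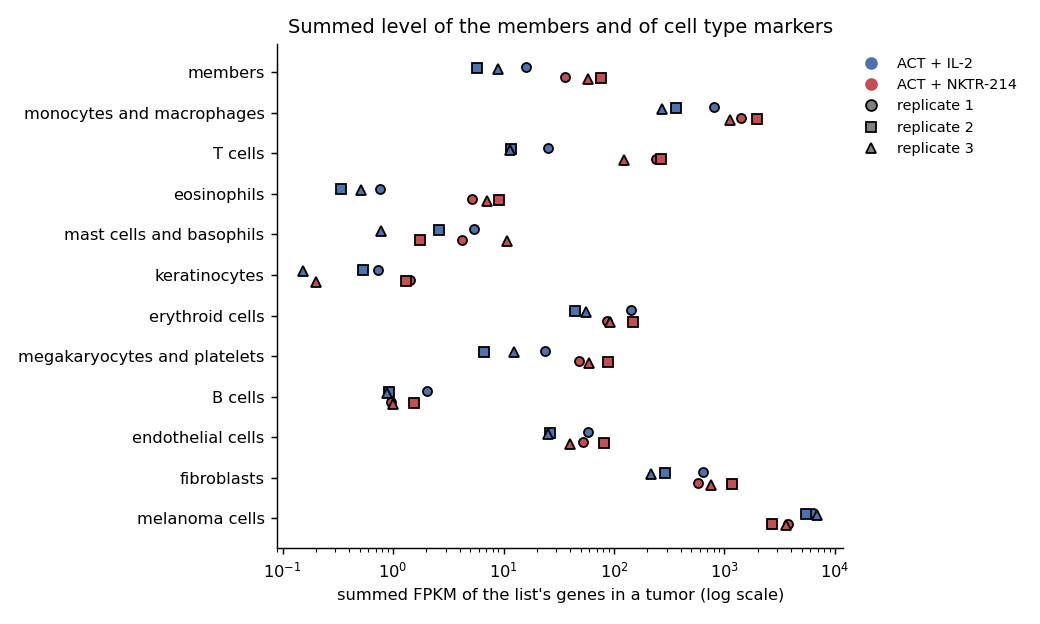
Summed FPKM (log axis) of the 10 genes (members) and of each marker list in the 6 tumors, 1 point per tumor. The 10 genes sum to 5.79 to 16 FPKM in ACT + IL-2 and 36.1 to 76.9 FPKM in ACT + NKTR-214 tumors, below the monocyte and macrophage list in every tumor.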

How the data were processed

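The authors deposited 1 table of FPKM values for 6 tumors, 3 per group. Per the labels and the submitters' processing notes, reads were aligned to GRCm38 with HISAT2 2.0.4 and counted with HTSeq; the annotation is not given in the sources used here. FPKM do not remove differences in RNA composition between tumors. The values were used as log2(FPKM + 1), for entries with a mean of at least 0.1 FPKM (14172 of 21358), and compared with limma 3.58.1 (R 4.3.3; lmFit, eBayes with trend, Benjamini-Hochberg over all entries tested, threshold 0.05). That minimum was taken over all 6 tumors, so an entry near 0 in 1 group could pass through the other group. No count test was run, as FPKM are not counts. The scripts were tested on simulated data.

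Depth was read from the spacing of FPKM values: of 704 genes with a single transcript, 93.5% gave whole reads within 0.05. Reads are without molecular identifiers.

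All 10 genes are given in full. Of related lists, every gene was named for lists of 6 or fewer, otherwise the 3 tested genes with the largest and 2 with the smallest log2 fold change, plus Ly6g, Ltf, Lcn2, Camp, Csf3, Il17a and Il1b; the genes listed at 0 in all tumors and those lowest in 1 tumor were named after their values were seen. The genes and lists were chosen with earlier results of these data known. Marker lists are given by sums. Alternatives were another pseudocount, minimum, scaling or variance model, a replicate block, and each tumor left out. Sequences are from RefSeq (GRCm38.p6), searched on both strands.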

Additional observations from a re-analysis of the deposited data

How the results depend on the processing

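Of 148 alternative values of the 10 genes, 128 kept direction and side of the threshold, 12 lost the call, 6 gained it and 2, both of Mmp9, changed sign. With 1 tumor left out, the log2 fold change of Mmp9 was between -0.32 and 0.16, and it was above 0 when ACT + IL-2 replicate 3 (0.04) or ACT + NKTR-214 replicate 1 (0.16) was the one left out. With each gene's own variance in place of limma's shared one, 101 entries were higher and 27 lower, against 2940 and 1173, and 0 of the 10 genes were called, with adjusted p from 0.0597 for S100a8 to 0.866 for Mmp9; fewer degrees of freedom follow from that setting's construction. Entries called lower were 3710 with 75th percentile scaling, 4549 with quantile normalization and 4440 with a common total, so the share of calls that were higher went from 71.5% to 46.8%, 37.0% and 39.7%, and the median of all entries shifted by -0.075, -0.145 and -0.126 on the log2 scale; the cause was not tested. The number of the 10 genes called higher was 8, 7 and 8 under these scalings, the lost one being Cxcl1. Leaving out 1 tumor at a time, 2005 to 3476 entries were higher and 636 to 1996 lower, and 6 to 9 of the 10 genes were called. The 6 were without ACT + IL-2 replicate 2, the tumor with the lowest FPKM sum, where 50.1% of calls were higher and Csf3r and Cxcl1 were not called; 1996 entries were lower without this tumor, and 636 and 680 when ACT + IL-2 replicate 3 or the second ACT + NKTR-214 tumor was left out. A minimum mean of 1 FPKM left Cxcr2 and Ngp untested.

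Replicate numbers name different mice. Same-numbered tumors' deviations correlated at -0.206, -0.0667 and 0.396, and not every tumor correlated best with its own number, so the numbers share only a name. With a replicate block, 3090 entries were higher and 1227 lower, and 9 of the 10 genes were called, Ngp (adjusted p = 0.026) in addition. Each of the 10 genes had a lower limma adjusted p with the block than without it, among them S100a8 (1.64e-11) and Cxcl1 (2.41e-06).

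Depth limits most of the 10 genes in the ACT + IL-2 tumors, where Ngp rested on 1 to 10 reads, Retnlg on 2 to 5, Cxcr2 on 3 to 13, Cxcl1 on 5 to 43, S100a9 on 6 to 25 and S100a8 on 10 to 21, and 3 tumors a group limit all values.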

Other observations

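The genes whose log2(FPKM + 1) over the 6 tumors was most like that of S100a8, among 11550 with a mean of at least 1 FPKM other than the 10 genes themselves, were Dpep2 (Pearson r 0.9991), Mgl2 (0.9975), Ear12 and Ear3 (both 0.9969) and Bcar3 (0.9964). Mgl2, a C-type lectin of macrophages and dendritic cells, was at 2.43, 1.15 and 1.08 FPKM in ACT + IL-2 and 11, 19.0 and 13.6 FPKM in ACT + NKTR-214 tumors. Ear12 and Ear3, of the eosinophil-associated ribonuclease family, had the same value in every tumor, and the cause was not tested. For Cxcr2 the most alike genes outside the 10 were Prg4 (0.9954), Pcsk5 (0.9937), Ppp1r3b (0.9894), Tmeff1 (0.9878) and Tmem179 (0.9868), beside an r of 0.992 with S100a9 and 0.99 with Mmp8, and for Cxcl1 they were Med11 (0.9932), Pla2g4a (0.9916), Habp4 (0.9895), Dhrs11 (0.9881) and Itga7 (0.9864). An r of at least 0.9 was reached by 1869 genes for S100a8, 612 for Cxcr2 and 876 for Cxcl1. The difference between the 2 groups enters each r over the 6 tumors, and these values are descriptions.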
